A study of Mus musculus with 16 samples.

Results

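Cardiomyocytes from DM-HFD mice were compared with cardiomyocytes from control mice after both had been kept with vehicle, across every listed gene and across the transcripts of each gene. The comparison took in 8 of the 16 RNA sequencing libraries of the series, 5 from control mice and 3 from DM-HFD mice, chosen by their labels for mouse and agent. The other 8 libraries, again 5 and 3, came from the same kinds of mice after 24 h with 9 nmol/L linagliptin, an inhibitor of dipeptidyl peptidase-4, and were used here only to set the same difference side by side. Both groups were adult heart muscle cells of C57BL/6 mice in primary culture, and both received 0.1% DMSO for 24 h. Control mice were approximately 8 weeks of age and carried no treatment that the labels name. DM-HFD mice had eaten a high fat diet over 26 weeks and had received streptozotocin, a toxin of the insulin-producing beta cell, after the first 12 of these weeks. Diet, streptozotocin and age, and any difference in the day of preparation, cannot be told apart in this design. Nothing in the labels says that the libraries of a group came from separate animals, so that the p-values measure the spread between these libraries, which may be partly technical.

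The adult heart muscle cell burns mainly fatty acids and, as these or glucose fall short or run over, ketone bodies, lactate and branched-chain amino acids. Insulin steers glucose uptake and glycogen storage in these cells through phosphatidylinositol 3-kinase and Akt, whereas fatty acids switch on their own oxidation through the nuclear receptor PPARα. A high fat diet with partial loss of beta cells gives a mouse that is both insulin resistant and short of insulin, and its heart is known for a heavier reliance on fat. Many cardiac genes also make several transcripts from the same locus, and the share of each transcript within its gene can move without any change in the level of the gene.

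Values were in FPKM, a fragment density that corrects for the length of the transcript and for the number of mapped fragments in the library. FPKM are not counts and the depth of each library is unknown, so the error of every value comes from the replicates. The FPKM of a library summed to between 315152 and 344908 in control and between 383621 and 405457 in DM-HFD libraries, whereas the median gene was at 4.66 to 5.14 FPKM in control and 3.66 to 3.90 FPKM in DM-HFD libraries. Genes encoded by mitochondrial DNA took 36.03, 37.6, 37.4, 35.95 and 34.7% of the summed FPKM in control libraries and 52.2, 44.1 and 47.1% in DM-HFD libraries. The groups did not overlap, and the difference was 11.4 percentage points (exact two-sided permutation test over 56 splits, p = 0.0179, the smallest these splits allow). The same share overlapped between the linagliptin libraries, at 33.1 to 40.0% in control and 26.5 to 41.4% in DM-HFD cells. The 10 cardiomyocyte markers, such as Myh6, Tnnt2 and Ryr2, were all expressed, with a summed level of 9200.5 to 10245 FPKM in control and 7859.8 to 10864 FPKM in DM-HFD libraries. In bulk RNA, fewer cells of a type and less RNA per cell cannot be told apart.

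Of 11631 listed protein-coding genes, 11359 averaged at least 0.5 FPKM in 1 of the groups and were tested with limma on log2(FPKM + 1). Fold changes are on that scale, which understates the change of genes with low FPKM. At a Benjamini-Hochberg adjusted p under 0.05, 3529 genes (31.1%) differed, 334 (2.94%) upward and 3195 (28.1%) downward in DM-HFD cells. The study's own thresholds were an unadjusted p of no more than 0.05 with a change of 1.5-fold or more. In the limma fit they were met by 2271 genes, 209 (1.84%) of them up and 2062 (18.2%) down. The study applied its thresholds with Ballgown, a different model. A fit with the model of Ballgown gave 312 genes up and 590 down here. The median gene had a log2 fold change of -0.20, so the balance of higher and lower genes depended on the scale set between libraries. With each library scaled by the median of its ratios to the geometric mean, the median gene was at 0.01 and the adjusted p gave 1544 genes (13.6%) higher and 1760 (15.5%) lower. With FPKM rescaled to a common sum in every library (TPM), the median was -0.38, with 122 genes (1.07%) higher and 5277 (46.5%) lower. Without DM-HFD library 2, the adjusted p gave 561 higher genes, without DM-HFD library 3 it gave 107, and without control library 1 it gave 190.

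The genes with the largest changes were chosen among those that passed the adjusted p in the deposited scale, with median-of-ratios scaling and with trends over transcript length and GC content removed, and whose groups did not overlap. The rule held for 44 higher and 1135 lower genes with a fold change of at least 1.5 and a mean of at least 2 FPKM in the higher group, and of the 12 with the largest change in each direction 11 higher and 12 lower genes are described. Members of the lists that come after them are called changed at the adjusted p in the deposited scale alone, and calls lost with median-of-ratios scaling, in TPM, with the trends removed or without a single library are given beside them. Angptl4, a secreted inhibitor of lipoprotein lipase that fatty acids induce, lies at chr17:33773750-33781575 of GRCm38 and was at 5.24, 5.76, 17.5, 23.2 and 15.6 FPKM in control and 28.5, 49.8 and 29.9 FPKM in DM-HFD cells. Its groups lay close together, with a log2 fold change of 1.52 ± 0.44 SE at an adjusted p of 0.0241 by limma, and in the linagliptin libraries the log2 difference was 1.09. The call was lost without DM-HFD library 2 (adjusted p = 0.0738) or 3 (adjusted p = 0.0585).

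Pglyrp2, an amidase that cuts bacterial peptidoglycan, was at 0.342, 0.0786, 0.246, 0.150 and 0.279 FPKM in control libraries and 3.86, 2.45 and 9.09 FPKM in DM-HFD libraries, a log2 fold change of 2.19 ± 0.28 SE at an adjusted p of 0.000578 by limma. Serpina3n, an acute phase protease inhibitor, was at 2.48, 2.27, 3.76, 2.49 and 2.06 FPKM in control and 18.5, 7.51 and 19.8 FPKM in DM-HFD libraries, with a log2 fold change of 2.08. Both genes were lowest among the DM-HFD libraries in library 2. Cd44, the hyaluronan receptor, was at 16.5, 13.3, 11.9, 6.10 and 15.4 FPKM in control and 35.8, 18.4 and 58.9 FPKM in DM-HFD libraries, a log2 fold change of 1.42 ± 0.36 SE at an adjusted p of 0.0140 by limma. DM-HFD library 2 lay just above the highest control library for Cd44, and without DM-HFD library 3 its call was lost (adjusted p = 0.0708). Ehd1, an ATPase that returns endocytosed receptors to the cell surface, was at 19.4, 17.0, 21.1, 19.3 and 23.9 FPKM in control and 49.7, 34.9 and 78.4 FPKM in DM-HFD libraries, a log2 fold change of 1.32 ± 0.22 SE at an adjusted p of 0.00176 by limma. For Ehd1 the control libraries were tightly grouped and the lowest DM-HFD library stood well above them. Serinc2, of the serine incorporator family, rose from a mean of 0.674 ± 0.411 to 4.42 ± 2.18 FPKM (SD, n = 5 and 3), and Slc10a4, a vesicular member of the bile acid carrier family, rose from 1.21 ± 0.535 to 5.71 ± 2.27 FPKM. Steap1, a haem-binding membrane protein, had a log2 fold change of 1.42 and Cgref1, a secreted protein with calcium-binding EF hands, one of 1.38. Hbb-bs, an adult beta globin chain, was at 8.22, 9.54, 3.96, 3.86 and 7.24 FPKM in control and 33.8, 19.3 and 10.3 FPKM in DM-HFD libraries (log2 fold change of 1.47 ± 0.36 SE at an adjusted p of 0.0117 by limma). Beside it, Hba-a1 and Hba-a2 were higher too, though neither passed with the length and GC trends removed (adjusted p = 0.0901 and 0.0818 from limma). Red cell markers with deposited values numbered 5, of which 4 were tested. The summed level of the 5 was 7.96 to 19.8 FPKM in control and 19.7 to 84.0 FPKM in DM-HFD libraries. The part of red cells in other results was not tested. The last was mt-Nd3, described with the respiratory chain.

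**Figure D1:**
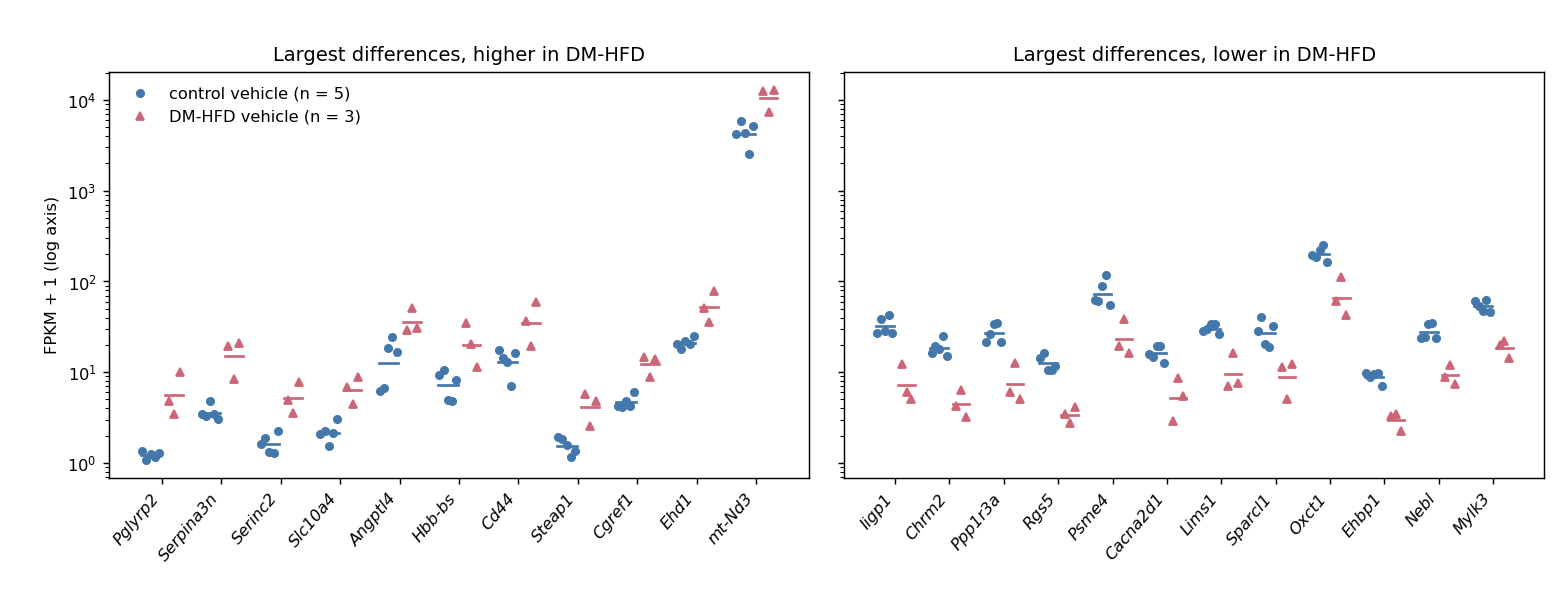
FPKM + 1 on a log axis of 11 named higher genes on the left and 12 named lower genes on the right. Each point is a library with vehicle (circles, 5 control; triangles, 3 DM-HFD) and each bar a mean on the log scale, and the DM-HFD points lie wholly above or wholly below the control points, as for Pglyrp2 at 0.342, 0.0786, 0.246, 0.150 and 0.279 against 3.86, 2.45 and 9.09 FPKM.

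Among the lower genes, signalling and fuel genes stood beside structural ones. Chrm2, the muscarinic receptor through which acetylcholine slows the heart, lies at chr6:36388084-36528414 and was at 15.1, 18.5, 17.0, 24.2 and 14.01 FPKM in control and 3.23, 5.36 and 2.22 FPKM in DM-HFD libraries, a log2 fold change of -2.06 ± 0.23 SE at an adjusted p of 0.000507 by limma. The highest DM-HFD library held far less Chrm2 than the lowest control library. Ppp1r3a, the subunit that brings protein phosphatase 1 to glycogen, was at 20.4, 25.7, 33.2, 34.1 and 20.7 FPKM in control and 5.09, 11.7 and 4.11 FPKM in DM-HFD libraries, a log2 fold change of -1.89 ± 0.29 SE at an adjusted p of 0.00112 by limma. Oxct1, the mitochondrial transferase that activates acetoacetate for oxidation, was at 193, 183, 222, 249 and 163 FPKM in control and 59.2, 112 and 41.8 FPKM in DM-HFD libraries, a log2 fold change of -1.60 ± 0.27 SE at an adjusted p of 0.00180 by limma. Psme4, the PA200 activator that caps the proteasome, was at 60.8, 60.4, 87.5, 117 and 53.4 FPKM in control and 18.5, 37.6 and 15.4 FPKM in DM-HFD libraries, a log2 fold change of -1.67 ± 0.31 SE at an adjusted p of 0.00299 by limma. DM-HFD library 2 was the highest of the 3 for Chrm2, Ppp1r3a, Oxct1 and Psme4 alike. Iigp1, an interferon-inducible GTPase, was at 26.1, 37.1, 27.5, 41.9 and 25.9 FPKM in control and 11.4, 5.03 and 4.06 FPKM in DM-HFD libraries, a log2 fold change of -2.15. Cacna2d1, the alpha2-delta subunit that carries L-type calcium channels to the membrane, fell from a mean of 15.4 ± 2.91 to 4.65 ± 2.84 FPKM (log2 fold change of -1.65 ± 0.29 SE at an adjusted p of 0.00238 by limma). Mylk3, the cardiac myosin light chain kinase, and Nebl, the Z-disc protein nebulette, had log2 fold changes of -1.54 and -1.59. Rgs5, a GTPase activator of pericytes, was at 13.4, 15.3, 9.48, 9.67 and 10.7 FPKM in control and 2.46, 1.78 and 3.11 FPKM in DM-HFD libraries, a log2 fold change of -1.88. Lims1, a focal adhesion adaptor, Sparcl1, a matricellular protein, and Ehbp1, which ties endocytosis to actin, had log2 fold changes of -1.65, -1.60 and -1.60.

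The lists that follow are described by how many of their tested members passed the adjusted p in each direction, beside 2.94% higher and 28.1% lower over all genes. Where a list is said to have no higher member, between 0 and 2 of its members were higher at an unadjusted p under 0.05 in limma. For the uptake and oxidation of fatty acids 47 genes were tested, of which 7 were higher and 7 lower, with a median log2 fold change of 0.06 against -0.20 for all genes. The list's median was 0.34 with median-of-ratios scaling, -0.20 in TPM and -0.08 with the length and GC trends removed. Its sign thus depended on the setting, whereas the medians of all genes, 0.01, -0.38 and -0.21, were lower at each. With median-of-ratios scaling 15 genes of the list were higher and 5 lower. Ech1, which isomerises dienoyl-CoA in mitochondria and peroxisomes, was at 294, 297, 296, 308 and 356 FPKM in control and 572, 599 and 631 FPKM in DM-HFD libraries, a log2 fold change of 0.95 ± 0.11 SE at an adjusted p of 0.000509 by limma. The heart fatty acid binding protein Fabp3 also rose, beside Angptl4, but did not pass in TPM (adjusted p = 0.0968 from limma) or with the trends removed (adjusted p = 0.689 from limma). Lpl, which frees fatty acids from circulating lipoproteins, fell from 277 ± 33.3 to 149 ± 33.3 FPKM (log2 fold change of -0.91 ± 0.16 SE at an adjusted p of 0.00204 by limma), and Esrrg, an orphan nuclear receptor of mitochondrial genes, had a log2 fold change of -1.06. Pdk4, the PPARα-responsive kinase that shuts pyruvate dehydrogenase, was at 48.9, 47.4, 159, 293 and 48.1 FPKM in control and 151, 423 and 60.5 FPKM in DM-HFD libraries. Control libraries 3 and 4 lay above DM-HFD library 1, the groups overlapped widely, and Pdk4 did not pass the test (adjusted p = 0.406 from limma).

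The lists of ketone body and branched-chain amino acid use, of the citric acid cycle and of glycogen had members that fell and none that rose in the deposited scale. Of 24 ketone and branched-chain amino acid genes 10 (41.7%) fell, beside 28.1% over all genes, the list median being -0.40. With median-of-ratios scaling 7 fell and 3 rose around a median of -0.12. Ppm1k, the phosphatase that switches on the branched-chain ketoacid dehydrogenase, fell from 8.22 ± 2.31 to 3.001 ± 0.406 FPKM, and Mut, the methylmalonyl-CoA mutase at the end of valine and isoleucine breakdown, from 19.5 ± 3.24 to 9.14 ± 2.14 FPKM. Of 27 genes of pyruvate entry and the citric acid cycle 9 (33.3%) fell, a share near the 28.1% over all genes. The list median of -0.22 was near the -0.20 of all genes. It became 0.06 with median-of-ratios scaling, where 3 rose and 5 fell. Sucla2, a subunit of succinyl-CoA synthetase, was at 132, 135, 151, 154 and 139 FPKM in control and 71.9, 76.6 and 44.5 FPKM in DM-HFD libraries (log2 fold change of -1.17 ± 0.17 SE at an adjusted p of 0.000953 by limma). Dld, the dehydrogenase shared by the pyruvate, oxoglutarate and branched-chain complexes, fell from 139.6 ± 8.57 to 67.7 ± 14.8 FPKM, and Pdha1, the catalytic subunit of pyruvate dehydrogenase, from 283 ± 30.2 to 158 ± 28.6 FPKM. Of 16 glycogen genes 8 fell, with a median of -0.61 that stayed below 0 at -0.36 with median-of-ratios scaling and at -0.51 without the length and GC trends. Ppp1r3c, another targeting subunit of phosphatase 1, was at 39.3, 41.7, 40.7, 37.7 and 38.7 FPKM in control and 18.2, 26.0 and 22.8 FPKM in DM-HFD libraries (log2 fold change of -0.81 ± 0.13 SE at an adjusted p of 0.00119 by limma). Ugp2, which makes UDP-glucose, and Gbe1, the branching enzyme, had log2 fold changes of -0.81 and -0.68. Of 21 genes of glucose uptake and glycolysis, 2 (9.52%) fell, a smaller share than the 28.1% over all genes. They were Pfkp, the platelet form of phosphofructokinase (6.97 to 3.12 FPKM, log2 fold change -0.97), and Slc16a1, a lactate and ketone body carrier. Slc16a1 did not pass with median-of-ratios scaling (adjusted p = 0.0598 from limma) or with the trends removed (adjusted p = 0.0888 from limma). With median-of-ratios scaling 5 of the 21 genes rose and 1 fell, and the median of -0.10 became 0.18.

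The respiratory chain is built from mitochondrial and nuclear genes, which were counted apart. Of 13 mitochondrially encoded mRNAs 8 were higher and 0 lower, with a median log2 fold change of 0.63. In TPM 6 were higher and 1 lower, with a median of 0.38. With median-of-ratios scaling 12 were higher and 0 lower, with a median of 0.92. With the length and GC trends removed 10 were higher and 0 lower, with a median of 0.66. In the linagliptin libraries the median log2 difference of these mRNAs was -0.10, of the opposite sign. The subunit of cytochrome oxidase mt-Co3 was at 11175, 11179, 9774, 10422 and 10925 FPKM in control and 27059, 22113 and 24274 FPKM in DM-HFD libraries, a log2 fold change of 1.19 ± 0.11 SE at an adjusted p of 0.000494 by limma. The complex I subunit mt-Nd3 was at 4177, 5906, 4348, 2552 and 5213 FPKM in control and 12708, 7329 and 12821 FPKM in DM-HFD libraries, a log2 fold change of 1.31. For mt-Co1 and mt-Nd1 the log2 fold changes were 0.74 and 0.65, but quantile scaling, which forces the most abundant ranks to equal values, put mt-Nd1 at -0.049 and neither gene passed there. Of 78 nuclear genes of oxidative phosphorylation, 7 were higher and 2 lower. Their median of 0.18 became 0.47 with median-of-ratios scaling, -0.08 in TPM and -0.17 with the length and GC trends removed. In the same order the counts were 51 higher and 0 lower, then 0 and 7, and last 0 and 15. The sign of the list thus depended on the setting. All genes had medians of -0.20 as deposited and then 0.01, -0.38 and -0.21. The list median lay above these throughout, by the least with the trends removed. Cox8a, a short mRNA of cytochrome oxidase, was at 96.2, 130.04, 121, 122 and 143 FPKM in control and 177, 173 and 195 FPKM in DM-HFD libraries (log2 fold change of 0.58 ± 0.14 SE at an adjusted p of 0.00948 by limma), and did not pass in TPM (adjusted p = 0.0537 from limma) or once those trends were removed (adjusted p = 0.688 from limma). Ndufs1, the largest subunit of complex I, had a log2 fold change of -0.87 and did not pass with median-of-ratios scaling (adjusted p = 0.0588 from limma).

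Of 80 cytosolic ribosomal protein genes 32 were higher and 0 lower, with a median of 0.47. With the length and GC trends removed 4 were higher and the median was 0.10, and in TPM 2 were higher and 2 lower. Rps10 was at 80.1, 91.8, 78.0, 86.4 and 112 FPKM in control and 134, 127 and 156 FPKM in DM-HFD libraries (log2 fold change of 0.63 ± 0.14 SE at an adjusted p of 0.00715 by limma), and was not called with these trends removed (adjusted p = 0.129 from limma). Of 38 proteasome genes, Psmb3, Psmb10 and Psme2 were higher and 4 lower, among them Psme4 and the lid subunit Psmd12 (64.3 to 42.1 FPKM), which did not pass with median-of-ratios scaling (adjusted p = 0.0593 from limma). Psmb3, Psmb10 and Psme2 passed neither in TPM nor with the trends removed nor without DM-HFD library 3 (adjusted p = 0.0745, 0.0670 and 0.117 from limma), and Psme2 was lost without 4 other single libraries as well. With median-of-ratios scaling 18 proteasome genes rose and 1 fell. The list median of 0.12 turned to -0.13 in TPM and -0.14 with the trends removed.

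Among genes of contraction, as over all genes, more were lower than higher. Of 38 sarcomere, Z-disc and M-band genes 13 (34.2%) fell, beside 28.1% over all genes, and the small heat shock protein Cryab rose. The list median was -0.43, beside -0.20 for all genes. With median-of-ratios scaling 8 fell and 2 rose, beside 15.5% lower and 13.6% higher over all genes. With the trends removed 20 fell and none rose, beside 24.9% lower and 1.63% higher over all genes. The groups overlapped for Cryab, and its call was lost in TPM (adjusted p = 0.0798 from limma), with the trends removed (adjusted p = 0.296 from limma) and without DM-HFD library 3 (adjusted p = 0.0790 from limma). Lmod2, leiomodin, which lengthens thin filaments, was at 391, 416, 338, 291 and 366 FPKM in control and 136, 217 and 117 FPKM in DM-HFD libraries, a log2 fold change of -1.24 ± 0.20 SE at an adjusted p of 0.00141 by limma. Nexn, the Z-disc protein nexilin, was at 119, 149, 166, 162 and 191 FPKM in control and 80.5, 65.9 and 33.5 FPKM in DM-HFD libraries, a log2 fold change of -1.45 ± 0.26 SE at an adjusted p of 0.00226 by limma. For both, the highest DM-HFD library stayed below the lowest control library. Of 27 calcium handling genes 11 (40.7%) fell and S100a1, a calcium sensor, rose, and with median-of-ratios scaling 6 fell and 3 rose. The groups overlapped for S100a1, and its log2 fold change turned to -0.11 with the trends removed, and its call was lost in TPM (adjusted p = 0.510 from limma) and without any single library other than control library 5. Trdn, triadin, which anchors calsequestrin to the calcium release channel, was at 36.9, 40.5, 48.1, 48.6 and 49.6 FPKM in control and 26.8, 19.4 and 12.1 FPKM in DM-HFD libraries (log2 fold change of -1.22 ± 0.22 SE at an adjusted p of 0.00233 by limma). Asph, whose locus also makes junctin, fell from 14.5 ± 2.16 to 5.83 ± 1.68 FPKM, Hrc, which buffers calcium in the lumen of the sarcoplasmic reticulum, from 277 ± 27.3 to 164 ± 27.1 FPKM, and Cacnb2, the beta subunit of the L-type channel, from 3.04 ± 0.775 to 0.844 ± 0.423 FPKM. Cacna2d1 and Cacnb2 are both accessory subunits of that channel.

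Of 28 further ion channels and pumps 7 fell and Scn4b, the beta4 subunit of sodium channels, rose, with a median of -0.30. With median-of-ratios scaling 4 fell and 2 rose, and the median was -0.13. Scn4b was at 2.40, 1.91, 2.93, 6.69 and 1.79 FPKM in control and 7.16, 12.6 and 6.02 FPKM in DM-HFD libraries, so that control library 4 overlapped the DM-HFD range (log2 fold change of 1.26 ± 0.33 SE at an adjusted p of 0.0149 by limma), and without DM-HFD library 2 its call was lost (adjusted p = 0.0505). Trpm7, a magnesium-permeable channel with a kinase domain, fell from 5.51 ± 0.806 to 1.78 ± 0.491 FPKM, and Abcc9, the sulphonylurea receptor of the cardiac potassium channel that ATP closes, from 13.3 ± 4.98 to 4.87 ± 1.97 FPKM. Of 36 genes of autonomic and cyclic nucleotide signalling 17 fell and none rose, with a median of -0.48. With median-of-ratios scaling 9 fell and 3 rose, and with the trends removed 11 fell. They included, besides Chrm2, the beta1 adrenergic receptor Adrb1 and Prkar2a, a regulatory subunit of protein kinase A (20.5 to 10.7 FPKM, log2 fold change -0.89).

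Insulin signalling had 18 of 33 tested members lower and 1, the translation repressor Eif4ebp1, higher, with a median of -0.49. With median-of-ratios scaling 10 were lower and 4 higher, with a median of -0.24, and with the trends removed 11 were lower and 2 higher. Eif4ebp1 did not pass in TPM (adjusted p = 0.116 from limma) or without DM-HFD library 3 (adjusted p = 0.0880 from limma). The genes that fell included the substrate Irs1 and the receptor Igf1r, the latter not called with the trends removed (adjusted p = 0.0775 from limma). Pik3r1, the regulatory subunit of phosphatidylinositol 3-kinase, was at 9.08, 8.06, 10.6, 10.5 and 7.24 FPKM in control and 3.50, 3.78 and 3.66 FPKM in DM-HFD libraries (log2 fold change of -1.11 ± 0.14 SE at an adjusted p of 0.000531 by limma). Rps6kb1, the S6 kinase downstream of mTOR, had a log2 fold change of -1.05. Of 23 cardiac transcription factors 10 fell, among them Klf9, a glucocorticoid-responsive factor (11.8 to 4.99 FPKM), and Tbx20 (7.45 to 3.65 FPKM), which did not pass with length and GC trends removed (adjusted p = 0.0728 from limma). The number of these factors that fell was 4 with median-of-ratios scaling and 7 with the trends removed. Of 16 natriuretic and stress genes 3 (18.75%) fell, a smaller share than the 28.1% over all genes. Nppa, which encodes atrial natriuretic peptide, was at 250.2, 319.9, 204, 316 and 401 FPKM in control and 192, 111 and 95.0 FPKM in DM-HFD libraries (log2 fold change of -1.19 ± 0.26 SE at an adjusted p of 0.00595 by limma), and Myh7, the slow myosin heavy chain, had a log2 fold change of -0.99. In the linagliptin libraries the log2 differences of Nppa and Myh7 were -0.25 and 0.46. Fgf21, a hormone of fasting and mitochondrial stress, was at 1.51, 1.56, 1.84, 1.60 and 0.871 FPKM in control and 2.23, 3.64 and 2.62 FPKM in DM-HFD libraries (log2 fold change of 0.63 ± 0.16 SE at an adjusted p of 0.0155 by limma), and neither in TPM nor with the length and GC trends removed nor without DM-HFD library 2 (adjusted p = 0.0530 from limma) did it pass.

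The clock and its nuclear receptors followed the general direction. Of 21 clock genes 7 (33.3%) fell, beside 28.1% over all genes, and none rose. The same number fell with median-of-ratios scaling. Rora, the retinoid-related receptor that activates Arntl, was at 3.51, 3.41, 2.80, 3.57 and 2.62 FPKM in control and 0.964, 0.358 and 0.177 FPKM in DM-HFD libraries (log2 fold change of -1.51 ± 0.17 SE at an adjusted p of 0.000509 by limma). Nr1d2, a repressor that acts on the same DNA element, was at 30.9, 30.0, 33.6, 29.8 and 24.4 FPKM in control and 11.5, 14.5 and 8.44 FPKM in DM-HFD libraries (log2 fold change of -1.32 ± 0.17 SE at an adjusted p of 0.000556 by limma). Per3, a period gene, had a log2 fold change of -0.75. The time of day at which cells were taken was not given in the sources used here.

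Among the lists, those of nuclear RNA and chromatin proteins held the highest shares of lower genes in the deposited scale. Of 55 RNA splicing factors 39 fell and none rose, with a median of -0.57, and of 58 chromatin regulators 41 fell and none rose, with a median of -0.62. With median-of-ratios scaling 23 and 30 of them fell, 2 and 1 rose, and the medians were -0.31 and -0.42. Ddx5, an RNA helicase of the spliceosome, was at 109.9, 115, 124, 126 and 114 FPKM in control and 59.8, 51.6 and 45.8 FPKM in DM-HFD libraries, a log2 fold change of -1.16 ± 0.12 SE at an adjusted p of 0.000494 by limma. Each group was tight for Ddx5 and the gap between them was wider than either range. Hnrnph1 and Hnrnpu, which bind nascent RNA, and Sf3b1, a core protein of the U2 particle, had log2 fold changes of -1.18, -1.07 and -1.11. Smc3, a ring subunit of cohesin, was at 14.2, 12.6, 14.8, 12.5 and 13.4 FPKM in control and 7.02, 4.57 and 3.91 FPKM in DM-HFD libraries, a log2 fold change of -1.26 ± 0.16 SE at an adjusted p of 0.000550 by limma. Setd2, which trimethylates histone H3 behind RNA polymerase, and Chd2, a chromatin remodeller, had log2 fold changes of -1.19 and -1.10. The median transcript length was 3110 bases in the splicing list and 6569 bases in the chromatin list, beside 2839 bases over all genes. With the trends over length and GC content removed, 31 splicing and 31 chromatin genes fell and none rose. Their medians were then -0.48 and -0.42 beside -0.21 for all genes. Other lists had similar shares at that setting. Of 38 sarcomere genes 20 fell (median -0.56), of 24 ketone and branched-chain amino acid genes 13 (median -0.52), and of 10 cardiomyocyte markers 7.

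Stress lists were divided. Of 21 heat shock genes 7 (33.3%) fell, beside 28.1% over all genes, and Cryab rose. Those that fell included the cytosolic chaperones Hsp90aa1 and Hspa4 and the mitochondrial Hspd1. With median-of-ratios scaling 5 of the list fell and 6 rose. Hspd1 was at 214, 201, 237, 251 and 195 FPKM in control and 141, 124 and 112 FPKM in DM-HFD libraries (log2 fold change of -0.79 ± 0.13 SE at an adjusted p of 0.00151 by limma). Hsp90aa1 fell from 122 ± 24.7 to 62.7 ± 2.75 FPKM and Hspa4 from 51.7 ± 3.88 to 30.8 ± 4.99 FPKM. Of 32 genes of endoplasmic reticulum stress and ATF4 5 (15.6%) fell and none rose, a smaller share of lower genes than over all genes. Those that fell included the lectin chaperone Canx (105 to 62.7 FPKM). With median-of-ratios scaling 1 of this list fell and 5 rose. Of 36 antioxidant genes 6 rose and 1 fell, with a median of 0.20. With the trends removed 5 rose and 2 fell, and with median-of-ratios scaling 20 rose and 1 fell. In TPM 2 rose and 5 fell with a median of -0.05, so the sign of the list depended on the scale. The medians of all genes were lower, at -0.20 in the deposited scale and -0.38 in TPM. Sod3, the extracellular superoxide dismutase, was at 1.43, 1.31, 1.27, 2.09 and 1.76 FPKM in control and 3.23, 3.17 and 3.07 FPKM in DM-HFD libraries (log2 fold change of 0.70 ± 0.13 SE at an adjusted p of 0.00257 by limma). G6pdx, which supplies NADPH, rose from 5.78 ± 0.578 to 9.88 ± 2.32 FPKM. Gclc, the rate-limiting enzyme of glutathione synthesis, fell from 11.2 ± 0.738 to 6.95 ± 0.752 FPKM. Of 24 immediate early genes none passed in either direction by limma, and 0 were higher and 1 lower at an unadjusted p under 0.05. Of 40 autophagy and lysosome genes 9 fell, including the initiating kinase Ulk2 (13.7 to 6.83 FPKM) and Atg12, a ubiquitin-like conjugating protein (29.7 to 17.9 FPKM), and Npc2, a lysosomal cholesterol carrier, rose. The share of lower genes was smaller than the 28.1% over all genes, and with median-of-ratios scaling the balance turned, with 13 rising and 3 falling. The groups overlapped for Npc2, whose call was lost in TPM (adjusted p = 0.227 from limma), with the trends removed (adjusted p = 0.0911 from limma) and without any single library other than DM-HFD library 2. Of 26 senescence and arrest genes 4 (15.4%) fell and none rose, again a smaller share than over all genes. The p53 targets Ccng1 (195 to 112 FPKM) and Mdm2 (23.5 to 14.1 FPKM) were among the 4. With median-of-ratios scaling 3 of that list fell and 2 rose.

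Of 47 interferon-inducible and antigen presentation genes 10 fell and none rose, a smaller share than the 28.1% lower over all genes, with a median of -0.27. With median-of-ratios scaling 7 fell and 2 rose, and with the trends removed 3 fell. Interferon acts on such genes through a promoter element of paired GAAA repeats, to which factors of the STAT and IRF families bind. The letters GAAANNGAAA, searched on both strands of the RefSeq promoters of GRCm38.p6 from 250 bases before to 50 bases after the start, were present in 1079 of 27025 promoters (3.99%). Of 38 list members with a promoter entry 23 held them. The windows below are shown because they carry the match in 3 of the lower genes, with the matched letters in capitals; in each the match lies on the strand opposite to the gene, so that it reads TTTCNNTTTC.
Gbp3, chr3:142559974-142560033, plus strand: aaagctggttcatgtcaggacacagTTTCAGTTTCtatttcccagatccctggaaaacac
Gbp7, chr3:142530258-142530317, plus strand: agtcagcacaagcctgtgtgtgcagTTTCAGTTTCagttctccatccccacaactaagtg
Rsad2, chr12:26456538-26456597, minus strand: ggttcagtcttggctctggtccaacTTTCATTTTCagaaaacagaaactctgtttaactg
The match ends 35, 43 and 110 bases before the start of Gbp3, Gbp7 and Rsad2. The GTPase gene Gbp3 was at 9.76, 11.2, 7.07, 4.95 and 4.96 FPKM in control and 4.90, 1.23 and 2.53 FPKM in DM-HFD libraries (log2 fold change of -1.19 ± 0.33 SE at an adjusted p of 0.0188 by limma), its neighbour Gbp7 at 3.73, 5.16, 3.08, 2.07 and 2.62 and 1.68, 0.384 and 1.18 FPKM (log2 fold change of -1.07 ± 0.25 SE at an adjusted p of 0.00931 by limma), and the antiviral enzyme Rsad2 at 7.15, 8.61, 6.07, 2.55 and 5.23 and 2.73, 0.847 and 2.39 FPKM (log2 fold change of -1.20 ± 0.32 SE at an adjusted p of 0.0166 by limma). Gbp3 was not called with median-of-ratios scaling (adjusted p = 0.0601 from limma), nor Gbp7 and Rsad2 with the length and GC trends removed (adjusted p = 0.0965 and 0.0639 from limma). The groups overlapped for Rsad2, and without DM-HFD library 2 neither Rsad2 nor Gbp3 was called (adjusted p = 0.0554 and 0.0616 from limma), nor was Gbp3 without DM-HFD library 3 (adjusted p = 0.0654 from limma). Of the 23 members with the letters 4 fell, with a median log2 fold change of -0.46, and of the 15 without them 1 fell, with a median of -0.07. Both shares were smaller than the 28.1% over all genes. The other list members that fell had no promoter entry and stand outside this split, whose difference was not tested. Among all 320 tested genes with the letters 93 (29.1%) fell, beside 28.1% of all genes, and the median was -0.23. The match is a description of the sequence and not a shown binding site. Parp14, another interferon-inducible gene, fell from 5.80 ± 1.65 to 2.07 ± 0.783 FPKM.

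Of 36 acute phase, cytokine and complement genes 5 rose, namely Pglyrp2, Serpina3n, C4b, Cfb and C1qb, and the chemokine Cxcl12 fell (14.3 to 6.64 FPKM). Complement C4b was at 0.391, 0.252, 0.476, 0.467 and 0.313 FPKM in control and 2.48, 0.632 and 1.46 FPKM in DM-HFD libraries (log2 fold change of 0.81 ± 0.20 SE at an adjusted p of 0.0132 by limma), and without DM-HFD library 3 its adjusted p was 0.0501. The groups overlapped for Cfb and C1qb, which did not pass in TPM (adjusted p = 0.0526 and 0.0631 from limma) or with the trends removed (adjusted p = 0.0941 and 0.182 from limma), and each was lost without any 1 of 6 libraries, DM-HFD library 3 among them (adjusted p = 0.134 and 0.207 from limma). C1qb is also a macrophage marker. The medians of the interferon and acute phase lists were -0.27 and 0.14, and in TPM the latter turned to -0.03. Of the acute phase list 3 members were higher and 7 lower in TPM, and 4 higher and 3 lower with the trends removed. Of the interferon list 3 were lower with the trends removed. Of 20 macrophage and leukocyte markers, 14 were tested and 4 rose. The summed level of the 15 with deposited values was 81.2 to 111 FPKM in control and 85.5 to 205 FPKM in DM-HFD libraries. Cd68, a lysosomal protein of macrophages, was at 10.1, 15.5, 13.2, 12.5 and 16.04 FPKM in control and 31.6, 22.4 and 45.5 FPKM in DM-HFD libraries (log2 fold change of 1.20 ± 0.22 SE at an adjusted p of 0.00252 by limma), and Csf1r, the receptor for macrophage colony stimulating factor, was at 1.75, 1.39, 1.29, 1.49 and 1.58 and 3.41, 2.27 and 3.90 FPKM. Their part in the rise of acute phase and complement genes was not tested. Of 45 genes of extracellular matrix and TGF-beta 8 fell and none rose, a smaller share than over all genes, and with median-of-ratios scaling 4 fell and 2 rose. Among those that fell were the receptor Tgfbr1 (4.40 to 1.12 FPKM, log2 fold change -1.40) and Sparcl1.

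Of the 10 cardiomyocyte markers 4 fell (Myh6, Pln, Tnnt2 and Ttn), with a median log2 fold change of -0.45, and 7 fell with the trends removed. Of 24 endothelial markers 10 fell and none rose, the number falling being 4 with median-of-ratios scaling, with a summed level of 229 to 289 FPKM in control and 119 to 204 FPKM in DM-HFD libraries. Kdr, the main receptor for vascular endothelial growth factor, was at 12.5, 19.2, 15.2, 14.8 and 15.995 FPKM in control and 6.62, 4.91 and 7.26 FPKM in DM-HFD libraries (log2 fold change of -1.19 ± 0.16 SE at an adjusted p of 0.000625 by limma), and Fabp4, which capillary endothelium and fat share, had a log2 fold change of -1.15. Of 15 tested smooth muscle and pericyte markers 8 fell, including Rgs5, Abcc9 and Mcam (6.81 to 2.43 FPKM). The summed level of the 16 with deposited values was nonetheless 499 to 635 FPKM in control and 612 to 801 FPKM in DM-HFD libraries. Fibroblast markers gave 1 higher and 1 lower of 18, and 9 epicardial markers gave none by limma (0 higher and 0 lower at an unadjusted p under 0.05). Fat cell markers gave Cidea, a lipid droplet protein, higher (17.4 to 25.5 FPKM) at a limma adjusted p of 0.0325, which was lost in TPM, with the trends removed and when any of 5 of the 8 libraries was left out, and Fabp4 lower. The part of vessel cells in the lower matrix and signalling genes was not tested.

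**Figure D2:**
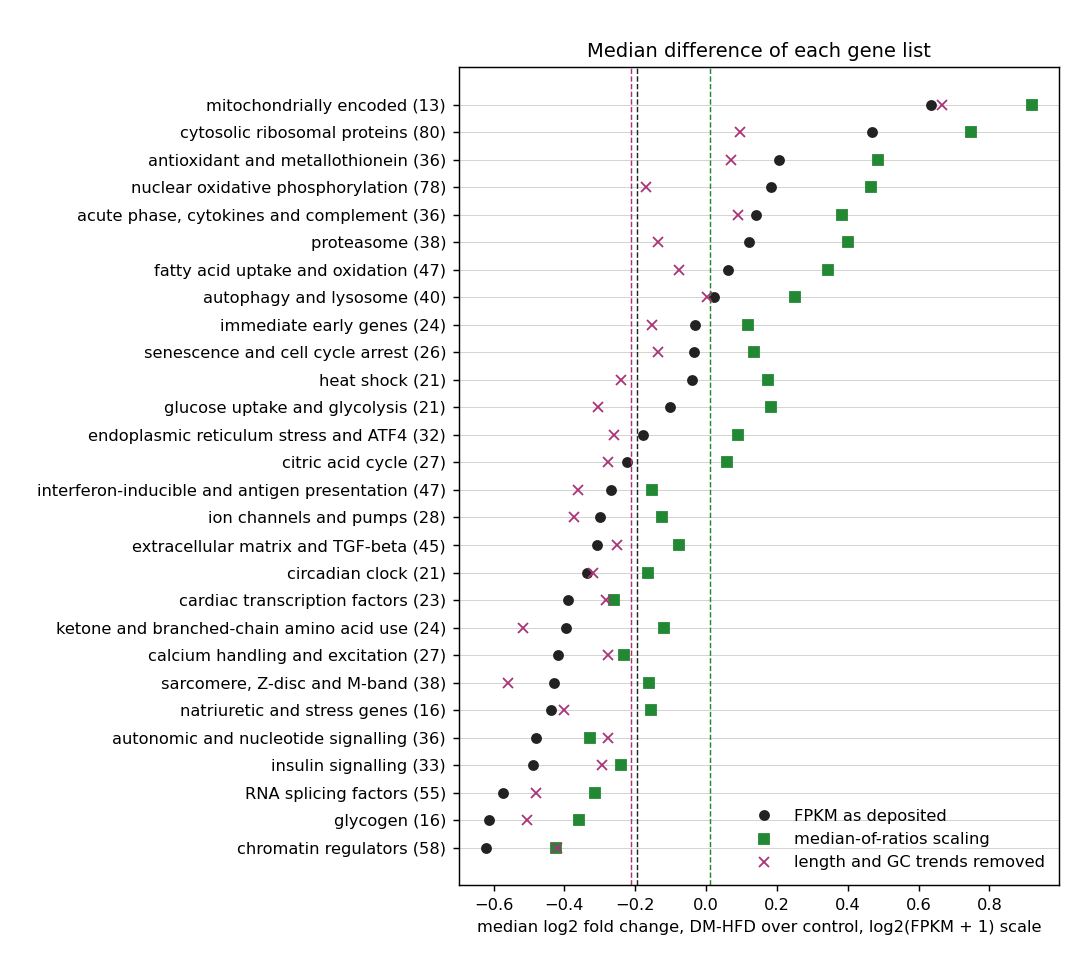
Median log2 fold change, DM-HFD minus control with vehicle, of each gene list in the deposited scale, with median-of-ratios scaling and with the trends over transcript length and GC content removed. Dashed lines mark the same medians over all genes, -0.20 in the deposited scale, and the number of genes tested stands in parentheses. Chromatin regulators lie at -0.62 and ribosomal proteins at 0.47, the latter at 0.10 once the trends are removed.

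The fold changes followed the length of the transcripts. Across 11229 genes with a known length, which are not independent replicates and share the same 8 libraries, Spearman's rho of the log2 fold change was -0.477 with transcript length and 0.501 with GC content. Genes were put in 10 bins of equal size by length. In the bin of shortest transcripts, with a median of 832 bases, 127 genes were higher and 62 (5.52%) lower, and the median log2 fold change was 0.15. In the bin of longest transcripts, with a median of 7671 bases, 2 were higher and 645 (57.4%) lower, and the median was -0.52. Between them the median log2 fold change fell from bin to bin. Within a library, Spearman's rho between transcript length and the deviation of each gene from its mean over the 8 libraries was 0.40, 0.26, 0.49, 0.38 and -0.15 in control libraries 1 to 5 and -0.48, -0.25 and -0.35 in DM-HFD libraries 1 to 3. Control library 5 stood apart from the other control libraries toward the DM-HFD side. Once both trends were removed, 183 genes (1.63%) were higher and 2800 (24.9%) lower, and with median-of-ratios scaling as well 560 (4.99%) were higher and 637 (5.67%) lower. Within genes another quantity was described, a length and not a fold change, so it does not show whether the trend also holds within genes. Across 4942 genes with several transcripts, the length of the mean transcript, weighted by the share of each, had a median log2 difference of 0.000154, and it was shorter in DM-HFD cells in 48.4% of genes. Its groups did not overlap in 192 genes toward shorter and 156 toward longer transcripts. The source of the trend between genes was not tested.

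**Figure D3:**
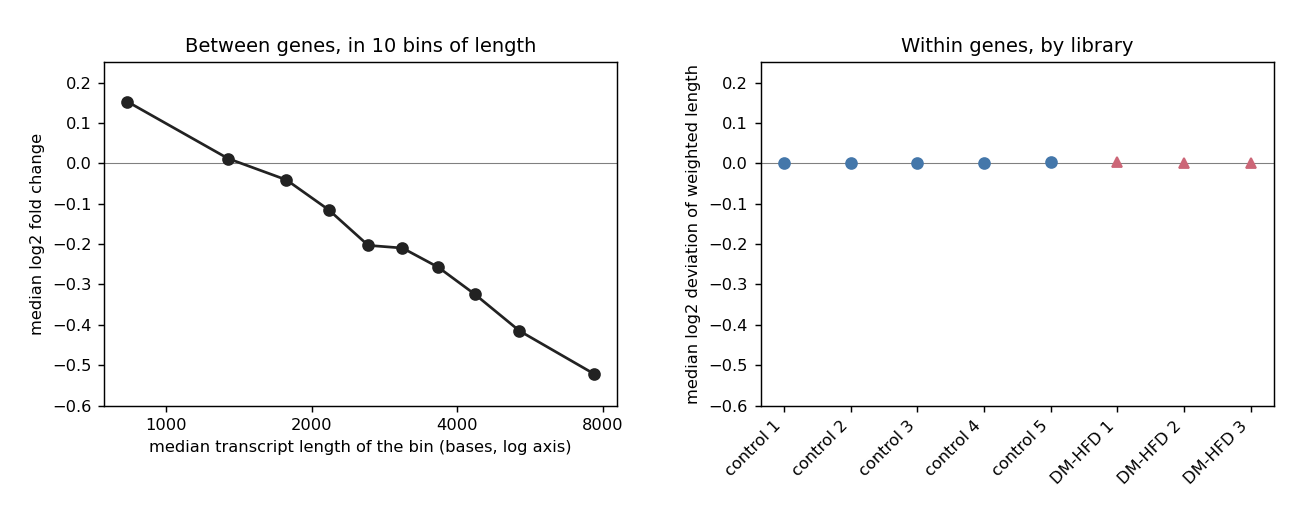
Median log2 fold change, DM-HFD minus control with vehicle, in 10 bins of transcript length (left, bases on a log axis), and the median over genes of the log2 deviation of the share-weighted transcript length in each library from its mean (right, circles control, triangles DM-HFD). On the left the median falls from 0.15 in the shortest bin to -0.52 in the longest. On the right, where the values are log2 lengths and cannot be compared in size with the left, all 8 libraries lie close to 0.

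The same difference was set beside that of the linagliptin libraries, which the test did not use and which may come from the same hearts. Of the 3195 genes lower with vehicle, 3144 (98.4%) were also below 0 there, beside 55.2% of all genes, and of the 334 higher genes 326 (97.6%) were above 0. The groups did not overlap with vehicle in 3788 genes, 385 (3.39%) higher and 3403 (30.0%) lower. Of these 3788, 2192 (57.9%) did not overlap in the same direction with linagliptin, which is 69.0% of the 3178 genes that did not overlap there. No gene passed an adjusted p of 0.05 for a difference between the vehicle and linagliptin contrasts in limma (lowest 0.894), with 533 at an unadjusted p under 0.05.

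The transcripts of each gene were then compared by their share of the summed FPKM of that gene, which does not depend on the scale between libraries. In all, 4978 genes with 12776 transcripts had at least 2 listed transcripts, a summed level of at least 1 FPKM in every vehicle library and a mean share of at least 5% in 1 group. The leading transcript was the same in all 8 libraries in 2618 genes (52.6%). By limma on the arcsine square root of the share, 8 genes (0.161%) were called at an adjusted p under 0.05 with a difference of at least 10 percentage points, and 420 genes had an unadjusted p under 0.05, as did 1090 transcripts (8.53%). Shares of 859 transcripts (6.72%) did not overlap between the groups. In the linagliptin libraries 513 of these 859 (59.7%) differed in the same direction, 101 (11.8%) without overlap, which is 10.4% of the 970 that did not overlap there, and 17 did not overlap in the opposite direction.

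Shares of weakly expressed genes were less certain. Where the summed level was 2 to 5 FPKM, the median SD of a share was 14.2 percentage points in control libraries, and where it was over 100 FPKM it was 3.47 points. Of the 8 called genes, 6 lay at 2 to 5 FPKM and 2 at 5 to 20 FPKM, and with a minimum of 5 FPKM 1 gene was called. Leaving out 1 library gave 25 genes without control library 1, 28 without control library 5, and 24, 33 and 18 without DM-HFD libraries 1, 2 and 3. The 8 genes were Esyt2, L3mbtl2, 0610010F05Rik, Thnsl2, Rprd1b, Tada3, Psph and Plpp2. In several of them a transcript was listed at 0 in every library of 1 group, which can be a failed estimate between near-identical models rather than absence. Esyt2-201, of the tether protein of endoplasmic reticulum and plasma membrane, took 0.948, 1.70, 0.728, 3.78 and 6.09% of its gene in control and 96.7, 95.2 and 89.1% in DM-HFD libraries, yet 50.2, 9.63, 2.19, 95.4 and 1.90% in control and 1.05, 0.351 and 68.7% in DM-HFD libraries with linagliptin. The groups overlapped widely with linagliptin.

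Of the called genes, 3 had at least 2 FPKM in every vehicle library and groups without overlap under the naming rule. Psph encodes phosphoserine phosphatase, the last step of serine synthesis. Psph-202, a short form with 303 coding bases and 4 exons against 675 and 8 for Psph-201, was listed at 0 in all 5 control libraries and took 38.8, 32.1 and 33.7% in DM-HFD libraries (gene adjusted p = 0.00137 from limma). With linagliptin it took 40.9, 0, 30.5, 36.1 and 0% in control and 0, 0 and 37.5% in DM-HFD libraries, so that the groups overlapped there. Tada3 encodes an adaptor of histone acetyltransferase complexes. Tada3-203 took 49.9, 36.5, 34.2, 37.3 and 31.7% in control libraries and was listed at 0 in all 3 DM-HFD libraries (gene adjusted p = 0.00606 from limma), but took 0, 0, 31.5, 31.8 and 26.8% and 0, 38.0 and 15.9% in the linagliptin libraries. It has 696 coding bases and 7 exons against 1296 and 9 for Tada3-201. For 0610010F05Rik, a gene model without an assigned role, 0610010F05Rik-208 took 74.3, 75.6, 80.0, 73.6 and 84.9% in control and 0, 0 and 1.15% in DM-HFD libraries (gene adjusted p = 0.000768 from limma). With linagliptin it took 18.3, 16.7, 9.27, 35.1 and 94.5% and 2.28, 0 and 2.28%, and this was the only one of the 3 whose groups did not overlap there.

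Transcripts with a difference of at least 10 points and no overlap in both the vehicle and the linagliptin libraries numbered 55 of 12776, in 42 of 4978 genes. These were counted after their values were seen, and the examples named here were chosen from them after their values were seen, without a rule. Mat2a makes S-adenosylmethionine. Mat2a-202 took 65.5, 62.6, 62.8, 61.4 and 55.8% in control and 41.0, 35.3 and 35.4% in DM-HFD libraries with vehicle, and 60.2, 62.2, 63.1, 60.9 and 62.7% and 43.2, 32.8 and 24.9% with linagliptin. Mat2a-201 took 30.8, 29.7, 31.7, 34.9 and 42.9% and 53.1, 59.1 and 56.3% with vehicle, and 33.9, 33.0, 34.0, 31.5 and 34.2% and 54.98, 59.7 and 50.7% with linagliptin. It became the leading transcript in all 6 DM-HFD libraries, but the gene did not pass the test (adjusted p = 0.125 from limma). Hnrnpdl, an RNA-binding protein that adjusts its own splicing, had Hnrnpdl-202 at 33.7, 49.7, 45.3, 51.8 and 44.8% in control and 60.9, 65.3 and 68.2% in DM-HFD libraries (adjusted p = 0.323 from limma), and at 41.1, 34.1, 48.9, 42.4 and 40.8% and 55.03, 65.9 and 68.4% with linagliptin. Eif4a2-202, of a helicase of translation initiation, took 59.2, 50.6, 59.8, 59.0 and 49.1% in control and 44.5, 32.5 and 34.0% in DM-HFD libraries (adjusted p = 0.443 from limma), and 53.1, 57.5, 57.1, 56.8 and 53.6% and 47.2, 38.8 and 29.4% with linagliptin. None of these 3 passed over all genes.

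Triadin was the calcium handling gene among the 42. The full-length Trdn-201, with 2079 coding bases and 38 exons, took 40.3, 44.5, 33.2, 40.7 and 34.9% of the gene in control and 22.9, 29.0 and 30.4% in DM-HFD libraries. The short Trdn-207, with 915 coding bases and 9 exons, took 7.74, 7.21, 19.3, 6.63 and 16.4% in control and 37.1, 31.8 and 26.9% in DM-HFD libraries (gene adjusted p = 0.468 from limma). With linagliptin Trdn-207 took 12.6, 12.6, 11.4, 12.6 and 7.37% in control and 13.7, 55.2 and 64.97% in DM-HFD libraries, the lowest of which lay just above the highest control library. Trdn-205, which is listed with an open coding end, took 23.5, 20.3, 21.996, 20.8 and 20.8% and 15.3, 11.1 and 14.3% with vehicle, and Trdn-208 took 20.5, 18.5, 19.4, 23.5 and 20.6% and 13.6, 16.7 and 17.2%. The following stretches hold bases that code in the named transcript and in no other listed transcript of its gene. Capitals mark these bases, and whether they lie in noncoding exons of the other transcripts was not checked. Lower case marks the 12 spliced bases before them and up to 12 after them, in GENCODE vM21 on GRCm38, with the coordinates of the capitals.
Trdn-207, chr10:33233927-33233982, plus strand: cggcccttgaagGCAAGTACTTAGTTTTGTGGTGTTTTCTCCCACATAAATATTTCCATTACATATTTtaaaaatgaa
Trdn-208, chr10:33196126-33196169, plus strand: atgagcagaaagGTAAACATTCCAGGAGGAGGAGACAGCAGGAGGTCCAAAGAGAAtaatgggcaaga
Mat2a-201, chr6:72434296-72434339, minus strand: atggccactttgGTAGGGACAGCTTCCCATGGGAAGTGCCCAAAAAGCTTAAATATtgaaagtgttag
Tada3-201, chr6:113374779-113374835, minus strand: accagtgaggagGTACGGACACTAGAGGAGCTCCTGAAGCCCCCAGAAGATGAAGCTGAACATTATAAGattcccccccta
The coding part of Trdn-207, Trdn-208 and Mat2a-201 ends with the last capital, whereas that of Tada3-201 runs on.

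**Figure D4:**
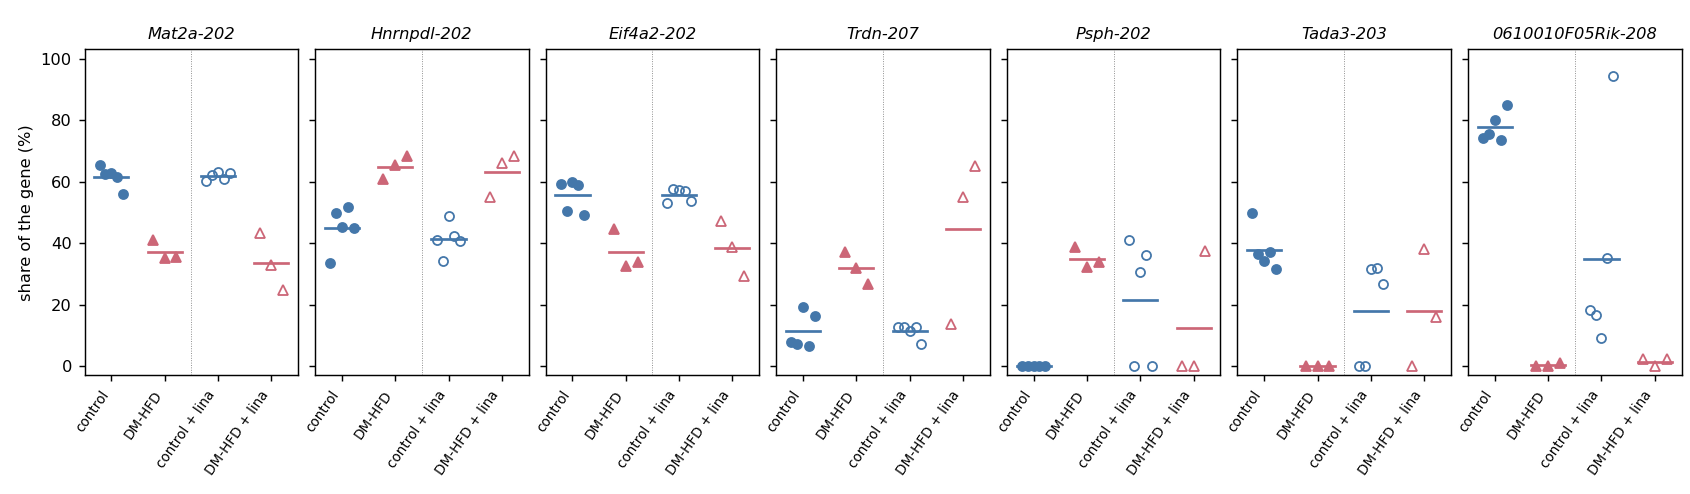
Share of the summed FPKM of its gene, in percent, of 7 transcripts named in the text. Each point is a library (circles control, triangles DM-HFD, filled with vehicle, open with linagliptin) and each bar a mean. Mat2a-202 lies at 41.0, 35.3 and 35.4% in DM-HFD libraries with vehicle, below every control library, whereas Psph-202 and Tada3-203 separate the groups with vehicle and overlap with linagliptin.

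Genes known for regulated splicing in the heart, such as Ttn, Ldb3, Camk2d and Tnnt2, were examined as a list. Of 68 listed genes 65 were tested with 245 transcripts, and none was called by limma (lowest adjusted p = 0.198). The shares of 23 transcripts (9.39%) did not overlap between the groups, beside 6.72% over all transcripts, and in 39 of the genes every transcript differed by less than 10 points. Among pairs of related genes, whose ratio within a library is free of scale, only Cox7a2 and Cox7a1, the ubiquitous and the muscle form of a cytochrome oxidase subunit, did not overlap. Cox7a2 made up 26.0, 29.2, 26.7, 29.6 and 30.1% of the pair in control and 33.8, 32.2 and 36.7% in DM-HFD libraries, and the pair overlapped with linagliptin. The share of Myh7 in the sum of Myh7 and Myh6 was 3.93% ± 0.835 (SD, n = 5) in control and 2.82% ± 0.204 (SD, n = 3) in DM-HFD cells, and the ranges overlapped. With linagliptin it was 3.84% in control and 7.62% in DM-HFD cells, a difference in the opposite direction whose ranges overlapped too. These pairs were described without a test.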

How the data were processed

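Polyadenylated RNA of cultured cardiomyocytes was extracted with Trizol and made into libraries with a KAPA stranded kit. The authors removed adapters with cutadapt, checked reads with FastQC 0.11.7, aligned them to GRCm38 with HISAT2 2.1.0 and estimated levels with StringTie 1.3.3 and Ballgown, as the submitters' processing notes give it, and deposited FPKM per gene and per transcript. Columns of the authors' own fold changes and p-values were not used.

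From these values, limma 3.58.1 in R 4.3.3 was run on log2(FPKM + 1) for genes averaging at least 0.5 FPKM in either group, and on the arcsine square root of transcript shares, with p-values of a gene's transcripts combined by Simes and Benjamini-Hochberg adjustment over all genes tested. Genes were named by a rule: an adjusted p under 0.05, a fold change of at least 1.5, no overlap, a mean of at least 2 FPKM in the higher group, a name other than a model number, the same call with median-of-ratios scaling and with length and GC trends removed, and the 12 largest changes in each direction. Isoforms were named in called genes with at least 2 FPKM in every vehicle library and no overlap. Some items that these rules select are not reported here. For each list, members among the 4 with the lowest p were given values, and defining members beside them. The comparison, lists and rules were chosen with earlier results of these data known. Transcript lengths, exons and GC content were those of GENCODE vM21, and promoters those of RefSeq. Alternatives changed the pseudocount, the filter, the scaling, the length and GC trends, the model, the libraries in the fit and the replicate block, and each library was left out in turn. The fits were tested on simulated data. Same-numbered libraries of the 2 groups did not deviate together, so the numbers were not used to pair them.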

Additional observations from a re-analysis of the deposited data

Results flagged for a closer look

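Among the 5 control libraries, 1 value lay apart from the other 4 by Dixon's test in 7 of 120 sets examined (5.83%), and chance gives about 1 in 20. In control library 4, Abcc9 was at 21.97 FPKM beside 9.44 to 12.2 FPKM, Scn4b at 6.69 FPKM beside 1.79 to 2.93 FPKM, and Hsp90aa1 at 78.9 FPKM beside 127 to 139.8 FPKM. In control library 5, Ech1 was at 356 FPKM beside 294 to 308 FPKM, and Ugp2 at 63.4 FPKM beside 77.1 to 79.2 FPKM. In control library 3, Hspa4 was at 58.5 FPKM beside 49.1 to 51.1 FPKM, and Serpina3n at 3.76 FPKM beside 2.06 to 2.49 FPKM. Of these genes Scn4b alone overlapped the DM-HFD libraries, through control library 4. Groups of 3 DM-HFD libraries were too small for this test.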

How the results depend on the processing

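At an adjusted p under 0.05, the counts of higher and lower genes were 334 and 3195 as reported. They were 1544 and 1760 with median-of-ratios scaling, 122 and 5277 in TPM, and 1283 and 1539 with quantile scaling. With the length trend removed they were 183 and 2963, and with length and GC trends removed 183 and 2800. With both trends removed after median-of-ratios scaling they were 560 and 637, and without moderation 204 and 2822. With the model of Ballgown, whose library covariate can be confounded with the groups, they were 1 and 0. At the thresholds of the study, 209 and 2062 as reported, they were 287 and 3126 with a pseudocount of 0.1, 283 and 3237 with 0.01, 755 and 963 with median-of-ratios scaling, 77 and 3428 in TPM, 547 and 916 with quantile scaling, 109 and 1722 with the length trend removed, 120 and 1272 with both trends removed, 345 and 383 with both removed after median-of-ratios scaling, and 312 and 590 with the model of Ballgown. Genes called by isoform share, 8 as reported, were 1 with a summed level of at least 5 FPKM, 13 without a minimum, 17 with all listed transcripts and 14 with all 16 libraries in the fit. Leaving out 1 library gave 107 to 561 higher and 2390 to 3177 lower genes at the adjusted p, 117 to 454 and 1924 to 2272 at the thresholds of the study, 7 to 33 isoform genes, and a difference in the mitochondrially encoded share of 9.25 to 13.3 points.

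With the replicate number as a block, 153 genes were higher and 1904 lower at the adjusted p, 0 genes were called by isoform share (296 at an unadjusted p under 0.05 in limma), and the mitochondrially encoded share differed by 10.8 points (exact permutation test within numbers, p = 0.25, the smallest it allows). The numbers share nothing else that the labels state, and same-numbered libraries had correlations of 0.00987, -0.340 and -0.141.

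Of 2771 comparisons of a named gene or transcript with an alternative, 2440 kept their direction and side of the threshold, 320 did not pass and 11 reversed. Leaving out 1 library made up 936 of the comparisons, of which 887 were kept. With both trends removed after median-of-ratios scaling, 66 of 114 were kept and 48 did not pass. With the model of Ballgown 1 of 114 was kept, 104 did not pass and 9 reversed. Losses at these last settings are not given gene by gene. The reversals were Hbb-bs at -1.67, Hba-a1 at -1.42, Hba-a2 at -1.14, Psme2 at -0.0058, S100a1 at -0.025, Adrb1 at 0.13, Per3 at 0.39, Pfkp at 0.27 and Kdm5d at 0.14 with the model of Ballgown, mt-Nd1 at -0.049 with quantile scaling, and S100a1 at -0.11 with length and GC trends removed; the cause was not tested. Depth is unknown, so that precision at low FPKM is limited to what 5 and 3 libraries show.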

Other observations

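Of 5 tested genes of the Y chromosome 4 were lower in DM-HFD cells, beside 28.1% over all genes. Ddx3y was at 15.8, 17.0, 23.3, 17.2 and 19.6 FPKM in control and 8.45, 6.63 and 5.63 FPKM in DM-HFD libraries (log2 fold change of -1.31 ± 0.16 SE at an adjusted p of 0.000519 by limma), and Eif2s3y at 14.2, 11.9, 14.2, 13.01 and 11.5 FPKM and 5.66, 5.16 and 4.84 FPKM (log2 fold change of -1.16 ± 0.12 SE at an adjusted p of 0.000494 by limma). Uty and Kdm5d had log2 fold changes of -0.79 and -0.61. With the length and GC trends removed the log2 fold changes of Ddx3y, Eif2s3y, Uty and Kdm5d were -0.82, -0.94, -0.29 and -0.15. At that setting limma gave Uty an adjusted p of 0.139 and Kdm5d one of 0.357, and neither was called. The labels give no sex for these libraries, and the part of sex or of pooled animals was not tested. By chromosome, the 334 genes of the X chromosome had a median log2 fold change of -0.34 with 4 higher and 132 lower. Close to it, the 421 genes of chromosome 13 had a median of -0.33 with 6 higher and 157 lower. The 532 genes of chromosome 3 had one of -0.30 with 14 higher and 192 lower. The 843 genes of chromosome 7 had one of -0.07 with 42 higher and 141 lower. Over all genes the median was -0.20, with 2.94% higher and 28.1% lower.

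When genes were put in 10 bins of equal size by FPKM, the median of the top bin was a log2 fold change of 0.09, with 121 higher and 158 lower, whereas in the bin just below it was -0.10, with 45 higher and 284 lower.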
